A study of Mus musculus with 40 samples.

Results

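This account follows 10 genes that make, degrade or sense extracellular adenosine, prostaglandin E2 and vasoactive intestinal peptide, or that degrade the second messenger cyclic AMP: Nt5e, Entpd1, Adora2a, Ada, Pde3b, Pde4b, Pde4d, Ptger3, Ptger4 and Vipr1. The genes come from a list of names, and the probe set of each was chosen by its mean log2 signal: of the probe sets annotated to that gene alone, the one with the highest mean over the arrays of its platform stood for the gene. By this rule 9 of the 10 genes were measured among 18194 named genes in the first experiment and 9 of the 10 among 17097 in the second. Adora2a was not analysed here. That mean level is a description, and the genes themselves were listed with earlier results of these comparisons known. Each adjusted p below therefore places a gene among all genes tested and is not independent support.

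The arrays measured RNA of mouse CD4 T cells on the C57Bl/6 background. In the sorted T cell experiment, cells of Foxp3GFP reporter mice were kept for 48 h in culture. The 3 groups were activated regulatory T cells (Treg; CD4+ CD45RBlow GFP+ cells stimulated through CD3 and CD28, 3 arrays), resting Treg (the same gate with no stimulation, 3 arrays) and resting conventional T cells (CD4+ CD45RBhi GFP- cells with no stimulation, 2 arrays). No stimulated conventional T cells were analysed here. The source label of these 8 arrays reads bone marrow. In the ligand experiment, all mice carried Foxp3-YFP-iCre, a Cre recombinase made in Foxp3-expressing cells, and CD4+ CD45RBlo YFP+ Treg came from spleen and peripheral lymph nodes. The WT mice had only that allele, and the KO mice were also Nrp fl/fl, a floxed neuropilin-1 gene that the Cre is meant to delete in the cells that make it. Cells received plate-bound anti-CD3 at 1 µg/mL, anti-CD28 at 2 µg/mL and interleukin-2 at 100 U/mL, with either control IgG1 or Sema4a-Ig, a fusion of the neuropilin-1 ligand semaphorin-4a, at 10 µg/mL. Each of the 4 combinations had 8 arrays. The labels give no age for the animals. WT replicate 2 with Sema4a-Ig is WT by its title and Nrp fl/fl by its genotype label, and it was kept as WT. Whether replicates were separate animals or cultures is not in the labels. The p-values set each difference against the spread among these samples, and that spread may be technical.

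Regulatory T cells restrain other T cells in part through a short chain of surface enzymes. Entpd1 (CD39) strips extracellular ATP and ADP down to AMP, Nt5e (CD73) turns AMP into adenosine, and Ada removes adenosine by turning it into inosine. Adenosine acts on the receptor encoded by Adora2a, which like the prostaglandin receptor EP4 (Ptger4) and the VIP receptor VPAC1 (Vipr1) couples to the stimulatory G protein and raises cyclic AMP. The prostaglandin receptor EP3 (Ptger3) couples mainly to the inhibitory G protein and lowers it. Phosphodiesterases such as Pde3b, Pde4b and Pde4d end the signal by breaking cyclic AMP down.

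The values were log2 signals per probe set, so a difference of 1 is a doubling of signal. The gates were first set against marker genes. In the sorted experiment Foxp3 had a mean of 10.44 in resting Treg and 10.81 in activated Treg, against 4.0 in conventional T cells, and 7 of 7 Treg markers were higher in resting Treg than in conventional T cells at an adjusted p under 0.05. In the ligand experiment 6 of the 7 Treg markers had means between 7.21 and 11.11, whereas the Foxp3 probe set had a mean of 3.55, inside the range of 23 nonspecific control probe sets (highest 3.95). The sorted arrays fall into 2 runs of title codes. The lower codes, before 183 (activated replicates 1 and 2, resting replicate 1), had Actb signals at the 3′ probe set that exceeded those at the 5′ probe set by 5.87 to 6.17, against 1.24 to 2.67 for codes 183 to 196, which hold the other 5 arrays. Within codes 183 to 196 the difference was 1.24 and 1.54 on the conventional arrays and 2.31 to 2.67 on the 3 Treg arrays, so it moves with every comparison with conventional T cells, and its part there was not tested. The labels do not call these runs batches. Mean myeloid marker signal was highest in activated replicate 1 (7.19, against 5.21 to 5.98 in the other 7 arrays), and 3 of 7 markers of B cells passed as higher in resting Treg than in conventional T cells. Klrd1, a receptor of natural killer cells, had a mean of 12.03 in conventional T cells, 7.30 in resting Treg and 5.34 in activated Treg (resting minus conventional -4.73, limma adjusted p = 0.000545; activated minus conventional -6.69, limma adjusted p = 7.85e-05), and was the 1 of 7 measured CD8 and NK cell markers that passed. In the list of 8 genes marking dendritic cells or MHC class II expression, 7 were higher in each Treg group than in conventional T cells and 0 passed limma, with Cd74, H2-Aa and H2-Eb1 under an unadjusted p of 0.05 in both comparisons (median difference 0.87 for resting and 0.68 for activated Treg). The part of these markers in the results was not tested. In bulk samples fewer cells of a type and less RNA per cell cannot be told apart.

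The promoters of 4 members are shown, 3 that differed between sorted Treg and conventional T cells and 1 that differed with Sema4a-Ig, with matches to 3 short motifs in capitals. The motifs were TGACG, the core of a cyclic AMP response element, CACCC, the core bound by KLF factors, and GTAAACA, the core bound by FOXO factors. Each was searched on both strands in the 250 bases before a start site, with overlapping matches counted. The sequences are from RefSeq on build GRCm38.p6, written 5′ to 3′ on the gene's strand. Nt5e (chr9:88327359-88327608, plus strand) and Entpd1 (chr19:40612116-40612365, plus strand, the first of its 2 start sites) were the genes of adenosine production with more signal in Treg. Vipr1 (chr9:121642466-121642715, plus strand) had less signal in Treg, and Ptger3 (chr3:157566626-157566875, plus strand) had less with Sema4a-Ig.
Nt5e: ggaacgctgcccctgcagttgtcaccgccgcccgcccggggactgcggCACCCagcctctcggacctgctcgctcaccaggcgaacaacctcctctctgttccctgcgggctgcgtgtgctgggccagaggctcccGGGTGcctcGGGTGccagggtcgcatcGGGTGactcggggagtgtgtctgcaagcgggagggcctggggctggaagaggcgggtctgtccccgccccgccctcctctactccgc
Entpd1: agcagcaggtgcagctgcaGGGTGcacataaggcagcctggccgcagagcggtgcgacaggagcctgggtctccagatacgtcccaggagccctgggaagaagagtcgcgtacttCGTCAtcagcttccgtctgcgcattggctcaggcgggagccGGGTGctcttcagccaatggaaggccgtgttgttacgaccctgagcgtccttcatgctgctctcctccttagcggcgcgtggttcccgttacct
Vipr1: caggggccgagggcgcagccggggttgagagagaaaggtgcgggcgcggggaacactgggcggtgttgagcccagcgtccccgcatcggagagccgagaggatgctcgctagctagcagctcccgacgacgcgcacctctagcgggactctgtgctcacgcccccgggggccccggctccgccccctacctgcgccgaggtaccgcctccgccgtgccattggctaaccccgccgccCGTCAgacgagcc
Ptger3: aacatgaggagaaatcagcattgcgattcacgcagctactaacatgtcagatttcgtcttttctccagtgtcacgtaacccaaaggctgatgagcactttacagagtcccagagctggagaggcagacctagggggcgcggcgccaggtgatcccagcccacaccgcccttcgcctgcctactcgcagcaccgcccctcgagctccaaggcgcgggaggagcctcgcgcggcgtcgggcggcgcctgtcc
The Nt5e window held 4 CACCC cores and no TGACG. The Entpd1 window held 2 CACCC cores and 1 TGACG, Vipr1 held 1 TGACG only, and Ptger3 held none of the 3 motifs. Among the 8 members with an entry, 12 start sites were listed, of which 4 (in Entpd1, Pde4b and Vipr1) held TGACG, 7 held CACCC and 0 held GTAAACA. For scale, TGACG stood in 17.8%, CACCC in 52% and GTAAACA in 3.17% of all 32851 promoter windows of the same length. A match is a string of letters and not a binding site.

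Resting Treg were compared with resting conventional T cells to ask how the genes differ between the lineages without stimulation. Among the members, both enzymes that produce adenosine had more signal in Treg and Ada, which turns it into inosine, had less. The receptors and phosphodiesterases were split. With limma, 6 of the 9 members passed an adjusted p of 0.05, 3 higher (Nt5e, Entpd1, Ptger4) and 3 lower (Ada, Pde3b, Vipr1). Among all genes 5.51% passed, 3.86% higher and 1.65% lower. The members were listed with this comparison known, so nothing is read from their count.

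Nt5e read 11.31, 11.56 and 11.48 in the 3 resting Treg arrays and 8.14 and 8.51 in the 2 conventional arrays. The groups lie far apart with no overlap. The signal was 8.73-fold higher in resting Treg (log2 difference 3.13 ± 0.24 SE, limma adjusted p = 0.000266). Activated Treg read 11.75, 11.39 and 12.13, so the Treg groups overlap (activated minus resting 0.31 ± 0.21 SE, limma adjusted p = 0.677). Against conventional T cells the activated Treg stood 10.8-fold higher (3.43 ± 0.24 SE, limma adjusted p = 0.000109). The other probe sets of Nt5e showed less. The second brightest differed by 0.63 ± 0.28 SE between resting Treg and conventional T cells and the dimmest by -0.19 ± 0.13 SE. With the mean of all 3 probe sets the difference was 1.19 and still passed.

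Entpd1 read 6.28, 7.51 and 7.78 in resting Treg, 6.43, 6.72 and 7.37 in activated Treg, against 4.23 and 4.19 in the 2 conventional arrays. All 6 Treg arrays lie above both conventional arrays, and the Treg groups overlap. The difference was 2.98 ± 0.44 SE (limma adjusted p = 0.00679) for resting Treg and 2.63 ± 0.44 SE (limma adjusted p = 0.00794) for activated Treg. The conventional values lie below the median of 19 genes not expressed in T cells (4.37), so these are differences from background signal and no fold of transcript is given. The other Entpd1 probe sets were close in size, at 3.85 ± 0.27 and 2.95 ± 0.29 SE in resting Treg. The lower Treg values were those of the lower codes, and within the other run resting Treg stood 3.43 above conventional T cells. Leaving out conventional replicate 1 or 2 lost both Entpd1 calls, with limma adjusted p between 0.0737 and 0.0821.

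Ada moved apart from the pair of producing enzymes. The 3 resting Treg arrays read 4.63, 4.69 and 4.60, the conventional arrays 6.03 and 6.19, and the activated Treg arrays 6.57, 5.95 and 6.59. Resting Treg were the low group, with no overlap with either of the others, while activated Treg and conventional T cells overlap. The resting Treg values lie near the median of the genes not expressed in T cells (4.37). The other values lie below the highest of those genes (Afp, 7.09) but above the next (Ins2, 5.93). Background in resting Treg limits the differences from that group, and no fold of transcript is given. Resting Treg lay below conventional T cells (-1.47 ± 0.22 SE, limma adjusted p = 0.00668), a call lost without either conventional array (adjusted p = 0.0734 and 0.0911). Activated Treg differed from conventional T cells by 0.26 ± 0.22 SE (limma adjusted p = 0.595). The 3 group levels therefore order as resting Treg, then conventional T cells and activated Treg together.

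**Figure D1:**
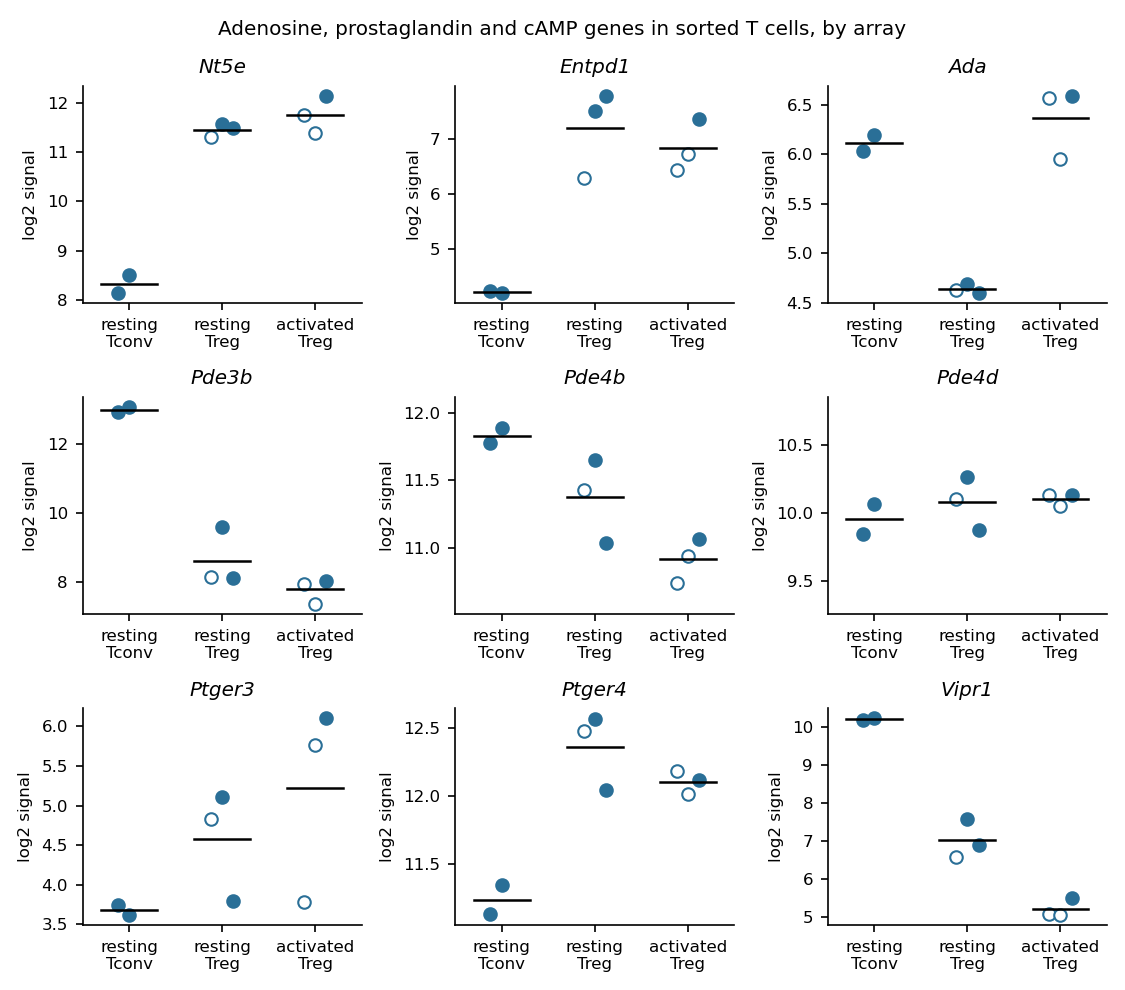
Log2 signal of each gene (vertical axes, one scale per panel) on the 8 sorted T cell arrays, with a point per array and a bar at the group mean (resting conventional T cells (Tconv) n = 2, each Treg group n = 3). Open points are the lower title codes, filled points codes 183 to 196. Nt5e and Entpd1 are higher in all 6 Treg arrays, Pde3b and Vipr1 lower, and Ada is low in resting Treg only among the 3 groups.

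The prostaglandin receptor Ptger4 read 12.48, 12.57 and 12.04 in resting Treg, 12.19, 12.02 and 12.12 in activated Treg, against 11.13 and 11.34 in the 2 conventional arrays. Every Treg array lies above both conventional arrays. The difference was 1.13 ± 0.20 SE in resting Treg (2.19-fold, limma adjusted p = 0.0136) and 0.87 ± 0.20 SE in activated Treg (1.83-fold, limma adjusted p = 0.0282). A second, dimmer Ptger4 probe set went the other way, by -0.37 ± 0.57 SE in resting and -1.14 ± 0.57 SE in activated Treg, so that with the mean of both the differences were 0.38 (limma adjusted p = 0.603) and -0.14 (limma adjusted p = 0.869). Both calls were lost without conventional replicate 1 (adjusted p = 0.193 for resting, 0.276 for activated) or 2 (0.0935 and 0.129), and on codes 183 to 196 alone (0.0743 and 0.173). The activated call was also lost without activated replicate 1 or 2 (adjusted p = 0.0754 and 0.0670), with each array centred on its median (0.0750) and with the code run as a block (0.0677).

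Vipr1, the VIP receptor, fell stepwise over the groups. It read 10.19 and 10.24 in conventional T cells, 6.58, 7.58 and 6.88 in resting Treg, and 5.09, 5.05 and 5.51 in activated Treg. No 2 of the 3 groups overlap. Resting Treg lay below conventional T cells (-3.20 ± 0.29 SE, limma adjusted p = 0.000573) and activated Treg lay further below (-5.00 ± 0.29 SE, limma adjusted p = 5.36e-05). The activated values fall within the range of 19 genes not expressed in T cells (median 4.37, highest 7.09), where background limits a fold. Of the resting values, 2 of the 3 lie below the highest of those genes (Afp) but above the next (Ins2, 5.93). The second Vipr1 probe set had a mean of 4.01, below that median, and differed by -0.41 ± 0.21 SE in resting Treg.

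Ptger3, the inhibitory prostaglandin receptor, varied more among the activated arrays (SD 1.25, n = 3) than any other member. It read 3.75 and 3.62 in conventional T cells, 4.84, 5.11 and 3.80 in resting Treg, and 3.78, 5.77 and 6.11 in activated Treg. The lowest array of each Treg group lies at the level of conventional T cells. Neither Treg group passed the test, with 0.90 ± 0.66 SE in resting (limma adjusted p = 0.567) and 1.54 ± 0.66 SE in activated Treg (limma adjusted p = 0.224). All 8 values lie below the highest gene not expressed in T cells (Afp, 7.09). All but that of activated replicate 3 also lie below the next (Ins2, 5.93). Without activated replicate 1, the array with the most myeloid marker signal, the activated difference was 2.25 and passed (limma adjusted p = 0.0224), as it did with array weights (1.88, limma adjusted p = 0.00314). The second Ptger3 probe set, at a mean of 4.06, went the other way. It differed from conventional T cells by -0.49 ± 0.25 SE in resting and -0.28 ± 0.25 SE in activated Treg.

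Pde3b, a phosphodiesterase that cyclic GMP inhibits, was the member with the largest difference. It read 12.93 and 13.09 in conventional T cells, 8.16, 9.60 and 8.11 in resting Treg, and 7.96, 7.37 and 8.05 in activated Treg. All Treg arrays lie more than 3 log2 units below both conventional arrays. The signal was 20.9-fold lower in resting Treg (-4.39 ± 0.44 SE, limma adjusted p = 0.000906) and 37.3-fold lower in activated Treg (-5.22 ± 0.44 SE, limma adjusted p = 0.000259). Resting replicate 2 stood above the other Treg arrays. Activated minus resting was -0.83 ± 0.39 SE and did not pass (limma adjusted p = 0.483), whereas with array weights it was -1.51 and passed (limma adjusted p = 0.0489).

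The cyclic AMP phosphodiesterases of family 4 differed far less. Pde4b read 11.77 and 11.89 in conventional T cells, 11.43, 11.65 and 11.04 in resting Treg, and 10.74, 10.94 and 11.07 in activated Treg. Activated Treg lie below conventional T cells without overlap (-0.91 ± 0.21 SE, 1.88-fold, limma adjusted p = 0.0308), and resting Treg lie between (-0.45 ± 0.21 SE, limma adjusted p = 0.311). The activated call was lost without activated replicate 1 or 2 (adjusted p = 0.0834 and 0.0837) and without either conventional array (0.187 and 0.225), with the code run as a block (0.0730), on codes 183 to 196 alone (-0.76, 0.244) and with the mean of all probe sets (0.0515). The other bright Pde4b probe sets gave larger differences in resting Treg, of -1.49 ± 0.56 and -1.74 ± 0.37 SE, and the 3 dim ones lay between -0.19 and -0.06. In activated Treg the same bright probe sets gave -1.33 ± 0.56 and -2.31 ± 0.37 SE, also larger than the one used. The 3 dim ones lay between -0.14 and 0.12 there. Pde4d read between 9.84 and 10.27 on all 8 arrays. Its differences were 0.13 ± 0.17 SE in resting and 0.15 ± 0.17 SE in activated Treg (limma adjusted p = 0.795 and 0.722).

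The activated and resting Treg arrays were compared to ask what stimulation changed. Ada rose and Vipr1 fell, and the other 7 measured members did not pass, so 2 of 9 members were called. Among all genes 0.742% passed, 0.522% higher and 0.220% lower. These comparisons share arrays with those above. Ada was higher in activated Treg, against a resting signal near background (1.73 ± 0.19 SE, limma adjusted p = 0.0113), by 1.63 within the lower codes and by 1.94 within codes 183 to 196. Vipr1 was lower (-1.80 ± 0.26 SE, limma adjusted p = 0.0284), by -1.51 and -1.72 within the runs. Both directions hold in each run and in every set of arrays with 1 left out.

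The adjusted p of these calls sits near the threshold. Ada missed it without activated replicate 1 (adjusted p = 0.0620) and without resting replicate 2 (0.0519). Vipr1 missed it without activated replicate 1 (0.107), 2 (0.0975) or 3 (0.0546), without resting replicate 2 (0.0548) and without either conventional array (0.0844 each), which enter through the shared estimate of spread. On the arrays of codes 183 to 196 alone neither passed (adjusted p = 0.0641 for Ada, 0.208 for Vipr1). For Ptger3 the runs disagreed, with -0.06 in the first and 1.65 in the second, and for Entpd1 they gave 0.29 and -0.28. Across activated Treg and conventional T cells, 6 of 9 members passed, 3 higher and 3 lower, with 9.70% of all genes called (5.93% higher, 3.77% lower). Without conventional replicate 1 or 2, fewer members were called in this comparison and in that of resting Treg with conventional T cells. The share of all genes called there is not given, so nothing about the members is read from this.

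**Figure D2:**
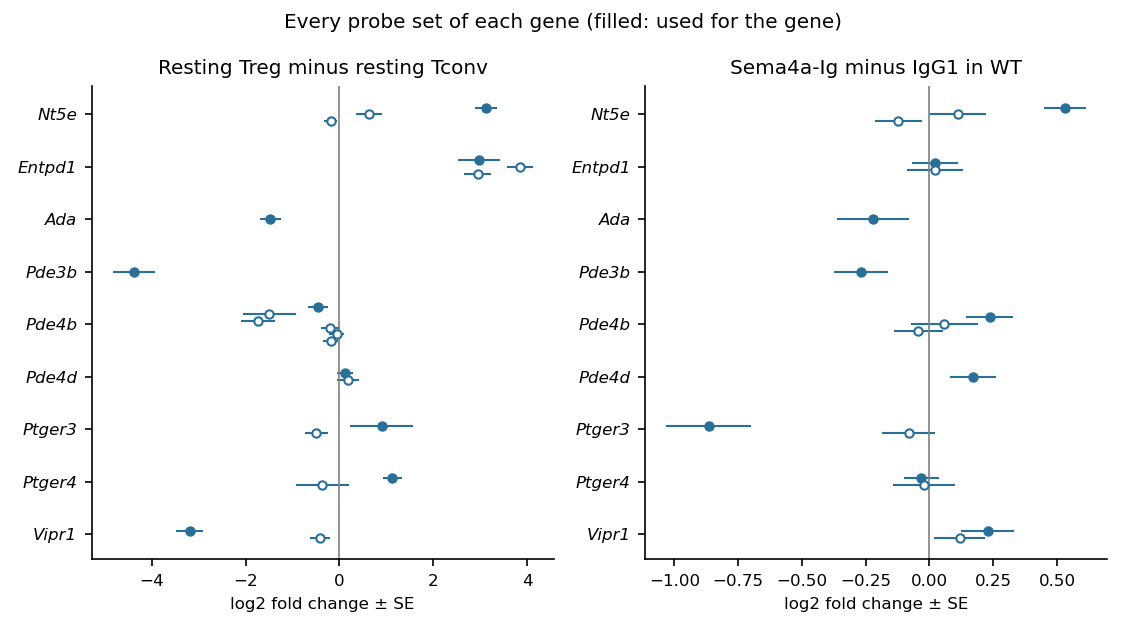
Log2 fold change ± SE (horizontal axes) of every probe set annotated to each gene, for resting Treg minus resting conventional T cells (left, 22 probe sets) and Sema4a-Ig minus IgG1 in WT (right, 17 probe sets), brightest at the top within a gene. Filled points are the probe sets used; the 3 Entpd1 probe sets lie together on the left, whereas for Nt5e, Ptger4 and Vipr1 the filled point lies apart from the others.

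Other genes of the same pathways were counted from 7 lists of 112 genes, of which 100 were measured in sorted cells. Between resting Treg and conventional T cells the median difference of these 100 genes was 0.11, against 0.01 over all genes. Of the 100, 9 passed, 5 higher and 4 lower, with 5.51% of all genes called. The genes that rose were P2rx7, the ATP-gated channel of the purinergic list (5.07 ± 0.22 SE), Ptger2, the EP2 prostaglandin receptor (5.05 ± 0.48 SE), the cyclic AMP responsive repressor Crem (3.60 ± 0.32 SE), the AP-1 factor Fosl2 (3.32 ± 0.25 SE) and the small GTPase Rap1a (0.66 ± 0.15 SE). Those that fell were Entpd6 (-1.80 ± 0.31 SE), Ampd1, an AMP deaminase (-1.11 ± 0.14 SE), Calcrl, a stimulatory peptide receptor (-1.08 ± 0.21 SE), and Entpd5 (-0.90 ± 0.20 SE). The conventional means of P2rx7 (4.66), Ptger2 (5.43), Crem (6.11) and Fosl2 (5.33) lie within the range of genes not expressed in T cells. That of Crem lies below the highest of those genes (Afp, 7.09) but above the next (Ins2, 5.93). The limma adjusted p of the 9 genes lay between 1.55e-05 and 0.0420. Fewer of the 100 passed without conventional replicate 1 or 2. The share of all genes called there is not given, so nothing about the list is read from this.

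By role, the 20 measured purinergic genes gave 1 higher and 3 lower. Among the 18 prostanoid genes 1 was higher, and among the 13 of CREB and its targets 2 were higher. None of the 10 adenylyl cyclases and none of the 12 other phosphodiesterases passed limma at an adjusted p of 0.05, with 1 of each under an unadjusted p of 0.05. Adcy7, Pde4a, Pde7a and Prkar1a, a regulatory subunit of protein kinase A, differed by -0.14, 0.09, -0.21 and 0.43 (limma adjusted p = 0.773, 0.848, 0.524 and 0.694).

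In activated Treg compared with conventional T cells 19 of the 100 passed, 11 higher and 8 lower, with 9.70% of all genes called. Fewer passed without conventional replicate 1 or 2, which leaves 1 conventional array, and the share of all genes called there is not given. Crem (3.96 ± 0.32 SE), Fosl2 (3.64 ± 0.25 SE), Nr4a3 (3.50 ± 0.46 SE) and Nr4a1 (3.37 ± 0.44 SE) made up the 4 higher genes of the CREB list. The effector list had 4 higher, the catalytic subunit Prkaca (1.08 ± 0.23 SE), the inhibitor Pkig (1.36 ± 0.25 SE), the cyclic AMP sensor Rapgef3 (1.30 ± 0.18 SE) and Rap1a, with Akap8 lower (-0.68 ± 0.17 SE). Ptger2 and the prostacyclin receptor Ptgir (0.88 ± 0.22 SE) were higher, and the thromboxane receptor Tbxa2r was 3.81-fold lower.

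Activated and resting Treg differed in 2 of the 100, the nuclear receptors Nr4a3 (2.59 ± 0.41 SE, limma adjusted p = 0.0401) and Nr4a1 (2.49 ± 0.39 SE, limma adjusted p = 0.0389). Among all genes 0.742% passed. Nr4a1 read 9.88 to 10.78 in activated and 7.05 to 8.54 in resting Treg, with no overlap. The count was 0 without activated replicate 1, 2 or 3, and 1 without resting replicate 1, 2 or 3. Fewer also passed without either conventional array. The share of all genes called in those settings is not given, so nothing about the list is read from these counts. Crem and Ptger2 did not pass between the Treg groups (0.36 ± 0.28 and -0.68 ± 0.43 SE).

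**Figure D3:**
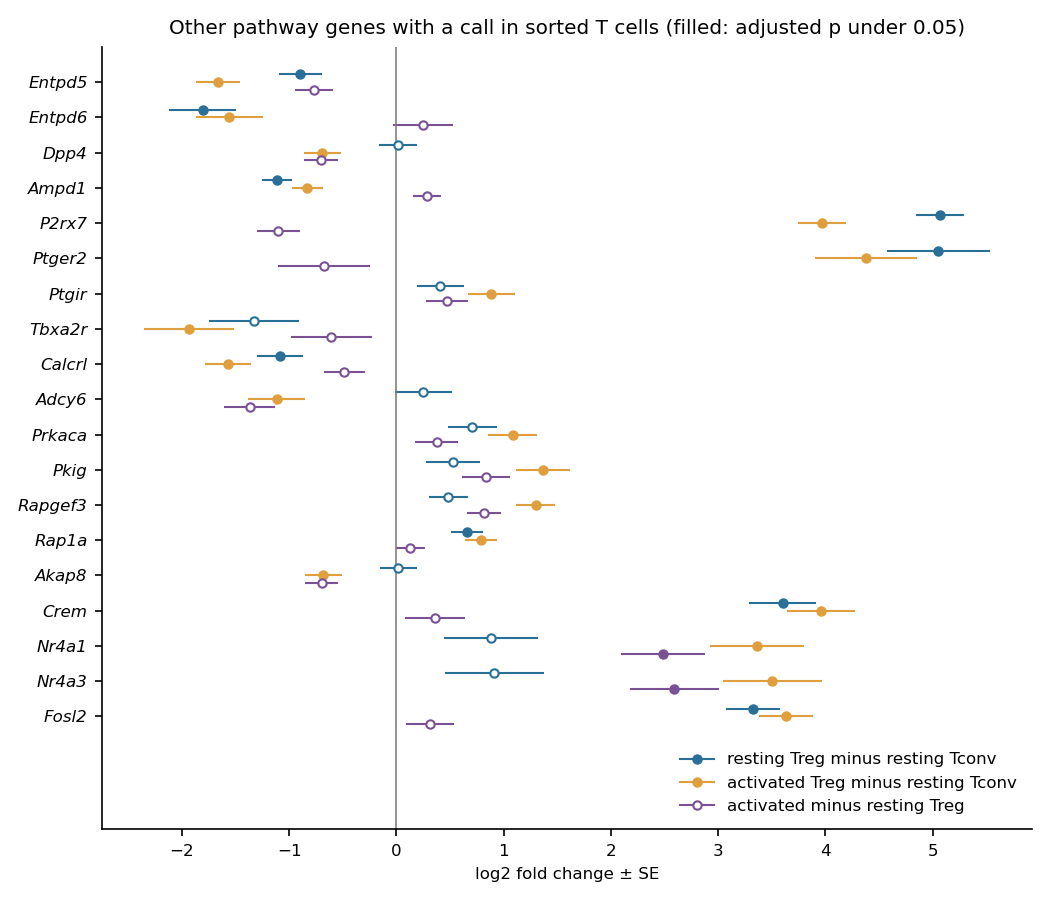
Log2 fold change ± SE (horizontal axis) of the other pathway genes with at least 1 call among the 3 comparisons of sorted T cells, one row per gene, colours for the comparison and filled points for an adjusted p under 0.05. P2rx7, Ptger2, Crem and Fosl2 lie above 3 in both comparisons with conventional T cells (Tconv), and Nr4a1 and Nr4a3 carry the filled points of activated minus resting Treg. The 3 comparisons share arrays.

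In the ligand experiment the question was whether semaphorin-4a changes these genes in Treg and whether neuropilin-1 is needed for it. The 32 arrays were deposited as 16 pairs, each of 1 IgG1 and 1 Sema4a-Ig array of a genotype, whose mean was the same in all pairs at every probe set (within 6e-05). Only the difference within each pair carries information, and genotypes cannot be compared in level, Nrp1 included. In WT Treg, Nt5e was higher and Ptger3 lower with Sema4a-Ig, and no other member passed. That is 2 of 9 members, with 5.79% of all genes called (2.91% higher, 2.88% lower), in a comparison known when the members were listed.

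Nt5e was higher with Sema4a-Ig in 8 of 8 WT pairs. The pair differences ran from 0.31 over a median of 0.40 to 0.93, and the 2 highest were pair 7 (0.93) and pair 3 (0.82). The mean was 0.53 ± 0.08 SE, or 1.45-fold (limma adjusted p = 0.000736), around a signal of 9.71. The second Nt5e probe set, at a mean of 7.37, differed by 0.11 ± 0.11 SE, and the third by -0.12 ± 0.09 SE. With the mean of the 3 probe sets the difference was 0.17 and did not pass (limma adjusted p = 0.122). The promoter shown above holds 4 CACCC cores, and the arrays do not test them.

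Ptger3 was lower with Sema4a-Ig in 8 of 8 WT pairs, from -2.04 in pair 7 and -1.51 in pair 3 over a median of -0.83 to -0.09 in pair 2. The mean was -0.87 ± 0.17 SE (limma adjusted p = 0.00488). Its mean level of 3.73 lies inside the range of the nonspecific controls (highest 3.95) and near the median of 18 genes not expressed in T cells (3.60). The second Ptger3 probe set differed by -0.08 ± 0.11 SE.

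Some markers of other cells, and of Treg, also differed between Sema4a-Ig and IgG1 in WT pairs. In WT pairs 11 of 14 myeloid markers had a positive mean difference and 3 passed limma, Lyz2 (0.81, adjusted p = 0.00439), Ctss (0.37, adjusted p = 0.00849) and Tyrobp (0.39, adjusted p = 0.0433). The mean myeloid marker difference ran from -0.23 in pair 4 to 0.52 in pair 7 of WT. In KO it ran from -0.23 in pair 8 to 0.40 in pair 4. Of the 14, 6 lay within the range of the nonspecific controls (Itgam, Elane, Lyz1, Cd14, Mpo and Spi1, means from 2.72 to 3.95). Of 7 Treg markers 6 had a positive mean difference and 2 passed, Nrp1 (0.37, limma adjusted p = 0.0220) and Ikzf2 (0.29, limma adjusted p = 0.0352). Of 8 CD8 and NK cell markers 6 had a negative one and Nkg7 passed (-0.52, limma adjusted p = 0.0335). Of 7 B cell markers 1 passed as higher, and of 4 erythroid markers 1 as lower. The part of these other lists in the Nt5e and Ptger3 differences was not tested. Pairs 7 and 3, with the largest Nt5e and Ptger3 differences, also had the largest myeloid marker differences (0.52 and 0.47), with mean CD8 and NK cell marker differences of -0.28 and -0.35. With the myeloid marker difference as a covariate Nt5e was 0.48 (limma adjusted p = 0.00283) and Ptger3 -0.77 (limma adjusted p = 0.0213). The covariate was centred on its mean over the 16 pairs of both genotypes. These 2 values hold at that mean and are not values with the marker difference removed. With no covariate, Nt5e and Ptger3 were 0.48 and -0.70 without WT pair 7, and 0.49 and -0.77 without pair 3, all past the threshold.

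**Figure D4:**
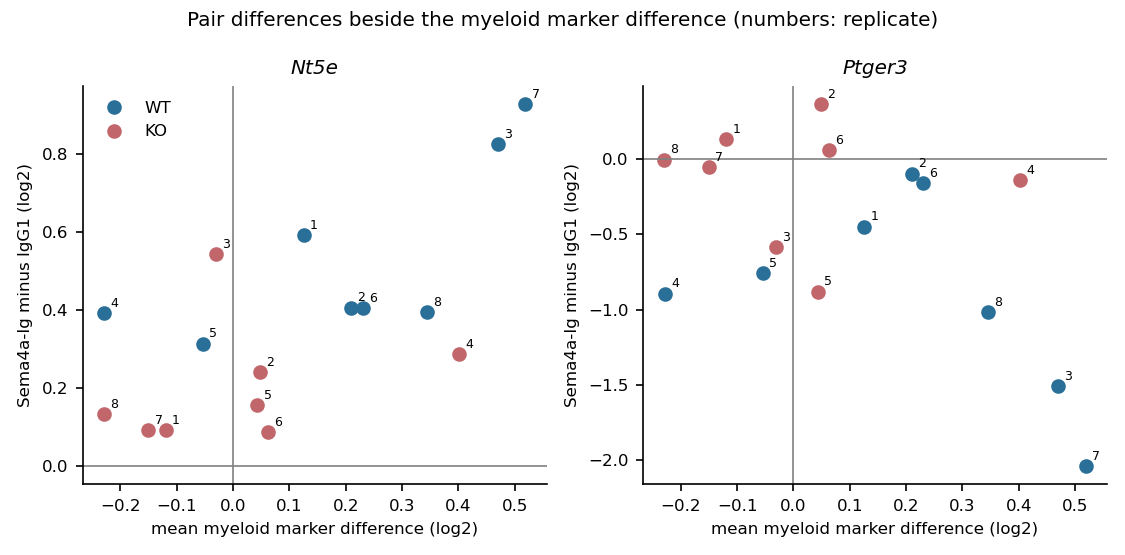
Sema4a-Ig minus IgG1 difference of Nt5e (left) and Ptger3 (right) in log2 units (vertical axes) against the mean difference of 14 myeloid markers in the same pair (horizontal axes), 8 WT and 8 KO pairs, numbered by replicate. WT pairs 3 and 7 lie furthest right in both panels, highest for Nt5e and lowest for Ptger3, and WT pair 4 has a marker difference of -0.23 with an Nt5e difference of 0.39.

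In KO Treg 0 of 9 members passed (2 under an unadjusted p of 0.05), and 0% of all genes did with limma (1787 genes at an unadjusted p under 0.05, smallest adjusted p 0.376). Nt5e was higher in 8 of 8 KO pairs too, from 0.09 over a median of 0.14 to 0.54, with a mean of 0.20 ± 0.08 SE (limma adjusted p = 0.424). The WT and KO pairs overlap. Ptger3 was lower in 5 of 8 KO pairs, from -0.88 to 0.37, with a mean of -0.14 ± 0.17 SE (limma adjusted p = 0.796).

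The difference between genotypes was tested directly. For Nt5e the KO response was smaller than that of WT by -0.33 ± 0.11 SE, and for Ptger3 it was 0.73 ± 0.24 SE higher. Neither passed over all genes (limma adjusted p = 0.758 and 0.748), and 0% of all genes did with limma (1015 at an unadjusted p under 0.05, smallest adjusted p 0.614). A response past the threshold in WT and not in KO is therefore not shown to differ between the genotypes, here or for the other members (limma adjusted p from 0.916 to 0.979).

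**Figure D5:**
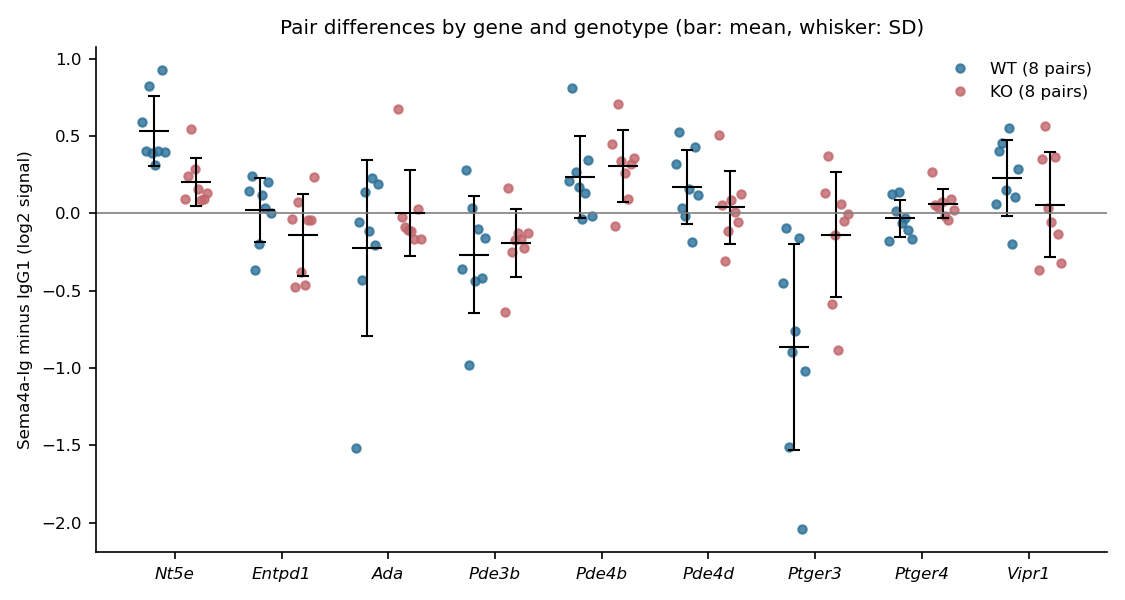
Sema4a-Ig minus IgG1 difference in log2 signal (vertical axis) of each gene (horizontal axis), with a point per pair, 8 WT and 8 KO pairs, the bar at the mean and whiskers of 1 SD. All 8 WT points of Nt5e lie above 0 and all 8 of Ptger3 below, all 8 KO points of Nt5e also lie above 0, and single pairs stand apart for Ada.

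The other adenosine enzymes among the members did not pass in either genotype. Entpd1 had WT differences from -0.37 to 0.24, higher in 6 of 8 pairs, with a mean of 0.02 ± 0.09 SE (limma adjusted p = 0.927), and a KO mean of -0.14 ± 0.09 SE (limma adjusted p = 0.578). Its brightest probe set here was another than in sorted cells, and the one used there gave 0.02 ± 0.11 SE in WT. The Entpd1 probe set used here had a mean of 5.21, below the highest of 18 genes not expressed in T cells (Prm1, 5.40). It lay above the next (Afp, 5.01), and the low signal limits what its differences show of the transcript. Ada had a WT mean of -0.22 ± 0.14 SE (limma adjusted p = 0.393) that pair 1 (-1.52) pulled down, the other 7 lying between -0.43 and 0.23. In KO the Ada mean was 0.01 ± 0.14 SE (limma adjusted p = 0.993).

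Pde4b differed in the same direction in both genotypes. Its WT differences ran from -0.04 to 0.81, higher in 6 of 8 pairs, with a mean of 0.24 ± 0.09 SE (limma adjusted p = 0.130). The KO differences ran from -0.08 to 0.71, higher in 7 of 8 pairs, with a mean of 0.31 ± 0.09 SE (limma adjusted p = 0.378). Pde3b had negative means in both, -0.27 ± 0.10 SE in WT (6 of 8 pairs lower, limma adjusted p = 0.134) and -0.19 ± 0.10 SE in KO (7 of 8 pairs lower, limma adjusted p = 0.522). Pde4d had a WT mean of 0.17 ± 0.09 SE and a KO mean of 0.04 ± 0.09 SE (limma adjusted p = 0.272 and 0.905). None of these passed.

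The stimulatory receptors showed no call. Ptger4 had the narrowest range of the members, from -0.18 to 0.14 in WT with a mean of -0.03 ± 0.06 SE (limma adjusted p = 0.842), and a KO mean of 0.06 ± 0.06 SE (limma adjusted p = 0.758). Vipr1 had a WT mean of 0.23 ± 0.10 SE, higher in 7 of 8 pairs (limma adjusted p = 0.196), and a KO mean of 0.06 ± 0.10 SE (limma adjusted p = 0.874). At a mean level of 3.62 Vipr1 lay inside the range of the nonspecific controls, which limits what its differences show of the transcript.

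Of the other pathway genes 98 were measured in the ligand experiment. The median difference in WT was 0.01 over the lists and -0.01 over all genes. In WT 13 of the 98 passed, 6 higher and 7 lower, with 5.79% of all genes called. The higher ones were P2rx7 (0.80 ± 0.11 SE, 8 of 8 pairs, limma adjusted p = 0.000392), the phosphodiesterase Pde2a (0.60 ± 0.13 SE), the CREB coactivator Crtc3 (0.60 ± 0.15 SE), the peptidase Dpp4 (0.46 ± 0.11 SE), the AMP deaminase Ampd3 (0.41 ± 0.10 SE) and the kinase anchor Akap13 (0.34 ± 0.07 SE). The lower ones were Nr4a2 (-0.51 ± 0.15 SE), Akap1 (-0.45 ± 0.11 SE), Pkig (-0.44 ± 0.13 SE), the kinase subunit Prkar2a (-0.42 ± 0.11 SE), Nr4a3 (-0.41 ± 0.10 SE, 8 of 8 pairs), the prostaglandin synthase Ptges2 (-0.40 ± 0.10 SE) and Entpd7 (-0.38 ± 0.11 SE). In KO and between genotypes the limma count was 0, with 13 and 7 of the 98 under an unadjusted p of 0.05.

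The count of calls changed with the pairs included and with a covariate. The share of all genes called in those settings is not given here. The 13 calls became 5 without WT replicate 1, 2 without replicate 3, 4 without replicate 7 and 3 with the centred myeloid marker difference as a covariate. P2rx7 had a KO mean of 0.21 with 7 of 8 pairs higher, and Nr4a3 a KO mean of -0.29 with 8 of 8 lower. Ptger2, Crem, Pde4a, Pde7a, Adcy7 and Prkar1a had WT means between -0.20 and 0.12 and did not pass. Crem, higher in resting Treg of the other experiment, was read here by a probe set with group means between 3.19 and 3.31, inside the range of the nonspecific controls.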

How the data were processed

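Affymetrix arrays measured CD4 T cell RNA, 8 in the sorted and 32 in the ligand experiment, on different platforms and analysed apart. The deposited values are log2 signals per probe set, and for the steps the authors took the submitters' processing notes name RMA and Partek 6.6. A single gene was annotated to 34958 of 45101 and to 28898 of 45141 probe sets (several genes to 932 and 551, none named for 9211 and 15692), and the brightest on average stood for each gene. Tests used limma 3.58.1 in R 4.3.3 (lmFit, eBayes) with Benjamini-Hochberg adjustment over all genes at 0.05. The 8 sorted arrays shared a fit of 3 group means, which leaves 5 residual degrees of freedom, and the 16 Sema4a-Ig minus IgG1 differences a fit of 2 genotype means, which leaves 14. The pairing comes from the title codes and from the pair means that the deposited values share. The number of arrays limits the precision. The members and gene lists were chosen with earlier results of these data known. All members were named, with up to 3 called genes per list plus Ptger2, Pde4a, Pde7a, Adcy7, Crem and Prkar1a; called genes beyond 3 in a list were added where a whole list is given. Both fits were tested on simulated data. Alternatives changed the normalization, filter, probe sets, weights, covariates, title code run, pairing and arrays included.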

Additional observations from a re-analysis of the deposited data

Results flagged for a closer look

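Among 18 sets of 8 pair differences (9 genes in 2 genotypes), 5 held a pair whose distance from the nearest other pair was large against the range of its set. The cutoff is one that flags about 1 in 20 sets of independent, normally distributed values. The sets of a genotype share their pairs, so no excess over that rate is read from the 5. Ada had a Sema4a-Ig minus IgG1 difference of -1.52 in WT pair 1, against -0.43 for the nearest pair. In KO pair 1 Ada had 0.67, against 0.03. Ptger4 had 0.27 in KO pair 1, against 0.09. Nt5e had 0.54 in KO pair 3, against 0.29, and this pair had the largest root mean square difference over all genes among the KO pairs (0.47). Pde4b had 0.81 in WT pair 2, against 0.34, and this is the pair whose Sema4a-Ig array has conflicting genotype labels.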

How the results depend on the processing

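Of 276 repeats of the 16 member differences that passed, 240 passed in the same direction, 35 missed the threshold and 1 changed sign. With the arrays taken as independent (no replicate block), the members called were 6 in WT, 2 in KO and 2 between genotypes, and the other pathway genes 27, 13 and 4; this ignores the pairing built into the values. Leaving out 1 array gave 0 to 2 members called for activated against resting Treg, 3 to 6 for each comparison with conventional T cells, and 0 to 1, 8 to 18 and 4 to 10 other pathway genes for activated against resting, activated against conventional and resting against conventional. Leaving out 1 pair gave 2 to 16 other pathway genes in WT. Code run 183 to 196 alone gave 0 members and 0 other genes for activated against resting Treg and 10 other genes against conventional T cells. The run as a block gave 5 other genes for activated and 14 for resting against their comparator (resting Treg and conventional T cells). Quantile normalization and median centring each gave 4 for activated against resting, and array weights gave 11 there, 40 for activated and 23 for resting against conventional T cells. In WT the centred myeloid covariate left 3 and a trended robust prior 8. The mean of all probe sets left 1 member in WT. The share of all genes called under each of these settings is not given here, so nothing about the members or lists is read from these counts.

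Signs changed for Ptger4 in activated Treg against conventional T cells (-0.14, mean of probe sets) and otherwise only for differences that did not pass. Ada in KO was -0.0019 with WT replicate 2 as KO, -0.018 with the myeloid and -0.024 with the Actb covariate, -0.040 with array weights and -0.090 to 0.030 with a pair left out, and -0.022 against conventional T cells with array weights. Entpd1 in WT was -0.0088 with replicate 2 as KO and -0.0088 to 0.078 with a pair left out, and 0.0079 for activated against resting Treg with the run as a block. Pde4d for activated against resting Treg was -0.050 (median centring), -0.086 (array weights) and -0.079 to 0.12 with an array left out; against conventional T cells it was -0.024 (median centring), and in KO -0.029 to 0.088 with a pair left out. Ptger3 in KO was 0.015 (mean of probe sets) and Ptger4 in WT 0.0071 (quantile). With a pair left out Pde3b between genotypes ran from -0.026 to 0.15 and Vipr1 in KO from -0.017 to 0.12. The cause was not tested. For Ptger3, Vipr1 and Entpd1 the signal over background limits the ligand values.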
